A study of Caenorhabditis elegans with 6 samples.

Results

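The genes lys-4 and lys-7 of the nematode Caenorhabditis elegans encode lysozymes, and both are described here in TGQ and WT animals. They were selected by gene name, and 2 of the 5792 genes in the deposited table carry these names. Lysozymes are secreted or lysosomal enzymes that cut peptidoglycan, the sugar and peptide mesh of the bacterial cell wall. The worm feeds on bacteria, and its lysozymes are known both as digestive enzymes of the gut and as effectors of innate immunity. They come in a protist-type family (the lys genes) and an invertebrate-type family (the ilys genes), and lys-7 is widely used in the worm as a read-out of immune gene expression downstream of the FOXO transcription factor DAF-16.

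The series compared TGQ animals with WT animals, in a project on inherited elevation of mitochondrial DNA, the mitochondrial unfolded protein response and aging. There were 3 TGQ samples, whose strain is given as TGQ in the labels, and 3 WT samples of strain SJ4100, a name used for a strain with a green fluorescent reporter of the mitochondrial chaperone gene hsp-6. The sources used here do not say how TGQ animals were derived or whether they carry that reporter. All animals fed on OP50 bacteria at 20 °C from hatching and were collected whole at the L4 stage, the last larval stage, and polyadenylated RNA was sequenced. The labels do not say whether replicates were separate cultures, and the p-values rest on a spread that could be technical.

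The table gives a signal per gene and sample whose unit is not named, so levels are compared between samples of 1 gene and not between genes. It lists genes the authors had selected for a difference between these groups (adjusted p of at most 0.0499 in the authors' deposited table). Of the 5540 genes tested here with limma, 90.2% were called, 45.6% higher and 44.6% lower in TGQ, and the median log2 change was -0.22. The summed signal was lower in TGQ, between 282762 and 293887 per sample, against 327792 to 349508 in WT. On the axis that carried 6.6% of the variance, WT replicates 1 and 2 lay at opposite ends, at 15.6 and -12.8.

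In the WBcel235 assembly (the sources used here do not name the authors' build), lys-4 lies on the minus strand of chromosome IV at 11621429 to 11623174. It has 2 exons and a coding length of 642 bases, for a protein of 214 residues. It stands next to lys-5 (11624252 to 11625582) and lys-6 (11626910 to 11627947), on the same strand. The lys-6 protein is also 214 residues long, and the sources used here do not say how reads shared by similar members of this cluster were assigned. The gene lys-7 lies on the minus strand of chromosome V at 3481432 to 3482600, with 3 exons and a coding length of 849 bases for 283 residues. The deposited annotation gives lys-4 a glycosyl hydrolase family 25 domain and lysozyme activity, and gives lys-7 neither. Of the 5 Gene Ontology terms listed for each gene, 1 is shared, the defense response to Gram-positive bacteria. The terms of lys-7 include defense against Gram-negative bacteria and fungi, and those of lys-4 include peptidoglycan breakdown.

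Both lysozyme genes were lower in TGQ animals. The signal of lys-4 was 129, 137 and 147 in TGQ replicates 1 to 3, against 219, 269 and 282 in WT replicates 1 to 3. Every TGQ sample lay below every WT sample, with a gap of 71.9 between the highest TGQ and the lowest WT value, and replicate 1 was the lowest of its group in both. The mean was 138 ± 9.26 (SD, n = 3) in TGQ and 257 ± 33.2 (SD, n = 3) in WT, a TGQ level of 0.537 times that of WT. On the log2(signal + 1) scale the change was -0.89 (SE 0.11, adjusted p = 0.000155, limma with Benjamini-Hochberg adjustment over 5540 genes).

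The signal of lys-7 was 40.9, 31.5 and 33.98 in TGQ replicates 1 to 3, against 61.1, 64.2 and 63.4 in WT replicates 1 to 3. Again the groups did not overlap, and the gap was 20.2. The mean was 35.5 ± 4.88 (SD, n = 3) in TGQ and 62.9 ± 1.58 (SD, n = 3) in WT, a TGQ level of 0.564 times that of WT. The log2 change was -0.82 (SE 0.12, adjusted p = 0.000313, limma). The spread was unlike between the members. The coefficient of variation of lys-7 was 13.8% in TGQ and 2.52% in WT, while that of lys-4 was 6.72% in TGQ and 12.9% in WT.

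**Figure D1:**
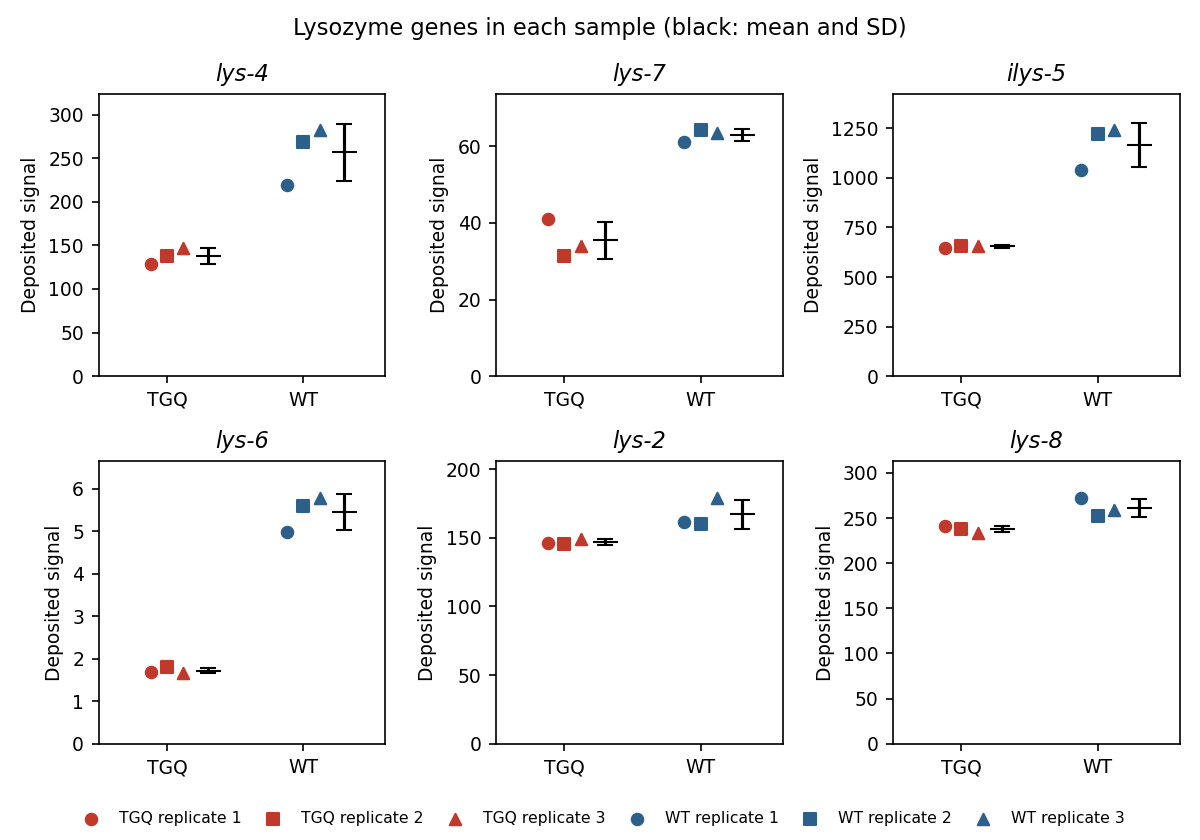
Deposited signal (unit not named, each vertical axis starting at 0) of lys-4, lys-7 and the other 4 lysozyme genes of the table, with 1 point per sample, TGQ left of WT, and the mean and SD in black. In lys-4 and lys-7 all 3 TGQ points lie below all 3 WT points, with gaps of 71.9 and 20.2, and in lys-2 and lys-8 the gaps are small beside the level.

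The 2 members were thus called lower and had groups that did not overlap, in a table where 44.6% of the genes tested were called lower and 47.2% had every TGQ sample below every WT sample. A fall is therefore common among the listed genes, and its size was moderate here. A lower log2 change than that of lys-4 was found for 889 of the 5540 genes (16.05%), and a lower one than that of lys-7 for 1005 (18.1%). In the authors' deposited table, which was scaled differently, the log2 fold was -1.05 for lys-4 (adjusted p = 2.88e-10) and -0.97 for lys-7 (adjusted p = 8.68e-11). Scaling TGQ values to match that table gave -1.01 and -0.94 in limma, and quantile normalization gave -0.61 and -0.71. Without WT replicate 1 the log2 change was -0.995 for lys-4 (adjusted p = 1.9e-05) and -0.84 for lys-7 (adjusted p = 0.000251). Without WT replicate 2 it was -0.85 for lys-4 (adjusted p = 0.00165) and -0.80 for lys-7 (adjusted p = 0.00227).

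Whether the members changed by different amounts was asked with their ratio within each sample, which does not change when a sample is multiplied by a single factor. The ratio of lys-7 to lys-4 was 0.318, 0.229 and 0.231 in TGQ replicates 1 to 3 and 0.279, 0.239 and 0.225 in WT replicates 1 to 3. The groups overlapped, and replicate 1 was the highest of each. On the log2 scale the ratio was -1.97 ± 0.27 (SD, n = 3) in TGQ and -2.02 ± 0.16 (SD, n = 3) in WT, a difference of 0.06 (SE 0.18, exact two-sided permutation p = 0.8, where 0.1 is the smallest p that 3 against 3 samples allow). After quantile normalization, which is not a single factor per sample, the difference was -0.10 (exact permutation p = 0.6). A difference between the members was not detectable in these samples.

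Of the 16 annotated lysozyme genes, 6 were in the table and all 6 were tested. None was called higher and 4 were called lower, in a table where 44.6% of the genes tested were called lower. The 6 genes had a median log2 change of -0.82, against -0.22 over all genes tested. With the authors' scaling all 6 were called lower, with a median of -0.95. That scaling called 2869 of all 5524 genes tested lower, with a median of -0.35. After quantile normalization 4 were called lower and 1 higher, with a median of -0.52 against -0.10. Of all 5540 genes tested, 2308 were then called lower and 2555 higher. Besides the 2 members, the genes called lower with the values as deposited were ilys-5 and lys-6. The first is an invertebrate-type lysozyme gene on chromosome X, and lys-6 is the cluster neighbour of lys-4. The other 10, among them lys-1, lys-3 and lys-5, are not analysed here.

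The signal of ilys-5 was 648, 656 and 659 in TGQ replicates 1 to 3, against 1041, 1222 and 1239.8 in WT replicates 1 to 3, a TGQ level of 0.56 times that of WT. Its log2 change was -0.83 (SE 0.09, adjusted p = 5.19e-05, limma), or -0.43 after quantile normalization. The signal of lys-6 was low, at 1.69, 1.8 and 1.67 in TGQ replicates 1 to 3 and 4.98, 5.6 and 5.78 in WT replicates 1 to 3. The TGQ mean was 0.315 times that of WT, and the log2 change of -1.24 (adjusted p = 3.62e-05), with 1 added to the signal, understates this fold.

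The protist-type genes lys-2 and lys-8 were not called in limma with the values as deposited. Both were lower in the authors' deposited table, at a log2 fold of -0.32 for lys-2 and -0.27 for lys-8 (authors' adjusted p = 0.020 and 0.0179). The signal of lys-2 was 145 to 149 in TGQ and 160 to 179 in WT, with a log2 change of -0.18 (adjusted p = 0.0713, limma). That of lys-8 was 234 to 241 in TGQ and 252 to 272 in WT, with a log2 change of -0.13 (adjusted p = 0.13, limma). Their direction depended on the scaling. With the authors' scaling both were called lower, at -0.31 for lys-2 (adjusted p = 0.00872) and -0.26 for lys-8 (adjusted p = 0.0121), and after quantile normalization lys-2 stood at 0.06 and lys-8 was called higher at 0.21 (adjusted p = 0.0221). Without WT replicate 1, lys-2 was also called lower, at -0.20 (adjusted p = 0.0406).

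**Figure D2:**
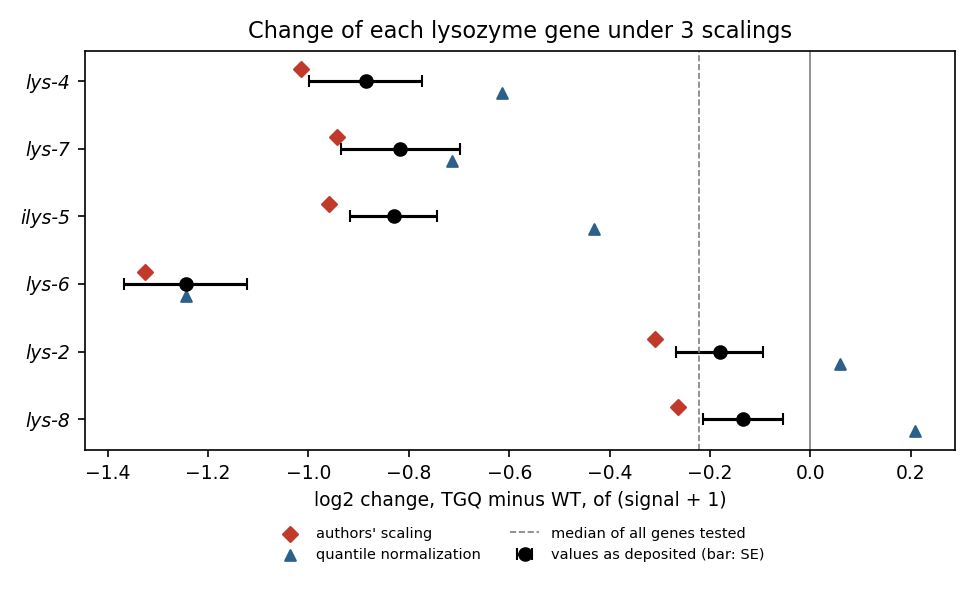
Log2 change of signal + 1, TGQ minus WT, of the 6 lysozyme genes in the table: black points with SE for the values as deposited, red diamonds for the authors' scaling and blue triangles for quantile normalization. The changes of lys-4, lys-7, ilys-5 and lys-6 are below -0.4 under all 3, while lys-2 and lys-8 lie close to the dashed median of all genes tested (-0.22) and change sign after quantile normalization.

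Ratios within samples set the members against the other 4 genes, free of any single factor per sample. These 8 ratios were added after the data were seen and make a family of 9 with the ratio above. The log2 ratio of lys-4 to lys-8 was -0.79 ± 0.12 (SD, n = 3) in TGQ and -0.03 ± 0.24 (SD, n = 3) in WT, a difference of -0.76 (SE 0.16). The ratio of lys-7 to lys-8 differed by -0.70 (SE 0.12), that of lys-4 to lys-2 by -0.71 (SE 0.10) and that of lys-7 to lys-2 by -0.65 (SE 0.12). In each of these 4 ratios every TGQ sample lay below every WT sample (exact permutation p = 0.1, the smallest possible, and 0.15 after Benjamini-Hochberg adjustment over 9 ratios). Relative to lys-6 the members went the other way, by 0.77 (SE 0.08) for lys-4 and 0.83 (SE 0.14) for lys-7, again without overlap of the groups, or by 0.36 and 0.43 with 1 added to each signal. Relative to ilys-5 the difference was -0.06 (SE 0.06, exact permutation p = 0.4) for lys-4 and -0.0035 (SE 0.13, exact permutation p = 1) for lys-7, with overlapping groups. After quantile normalization these 2 differences were -0.18 (exact permutation p = 0.2) and -0.28 (exact permutation p = 0.1).

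Genes with a profile most like that of each member were sought among 3153 others with a mean signal of at least 10, by the root mean square distance between log2(signal + 1) profiles over the 6 samples, each centred on its own mean. The gene closest to lys-4 was ilys-5, at a distance of 0.065. It was followed by C02E7.7 (0.067), fat-7, which encodes a stearoyl-CoA desaturase (0.099), the C-type lectin gene clec-85 (0.103) and the cuticle collagen gene col-130 (0.109). In these genes, as in lys-4, WT replicate 1 was the lowest WT sample. The gene fat-7 stood at 40.6, 36.0 and 43.3 in TGQ replicates 1 to 3 and at 71.3, 77.9 and 86.8 in WT replicates 1 to 3.

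The genes closest to lys-7 were tag-261 (0.035), ZK1248.5 (0.051), Y1A5A.1 (0.052), Y57G11C.51 (0.06) and cpg-7, a chondroitin proteoglycan gene (0.067). In all 5, as in lys-7, TGQ replicate 1 was the highest TGQ sample. The signal of tag-261 was 21.3, 15.7 and 16.7 in TGQ replicates 1 to 3 and 30.1, 32.1 and 30.6 in WT replicates 1 to 3. The members were not each other's nearest profile, since lys-7 ranked number 66 from lys-4 and lys-4 number 283 from lys-7, at a distance of 0.182. These distances are descriptions over 6 samples and follow the group difference for the most part.

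**Figure D3:**
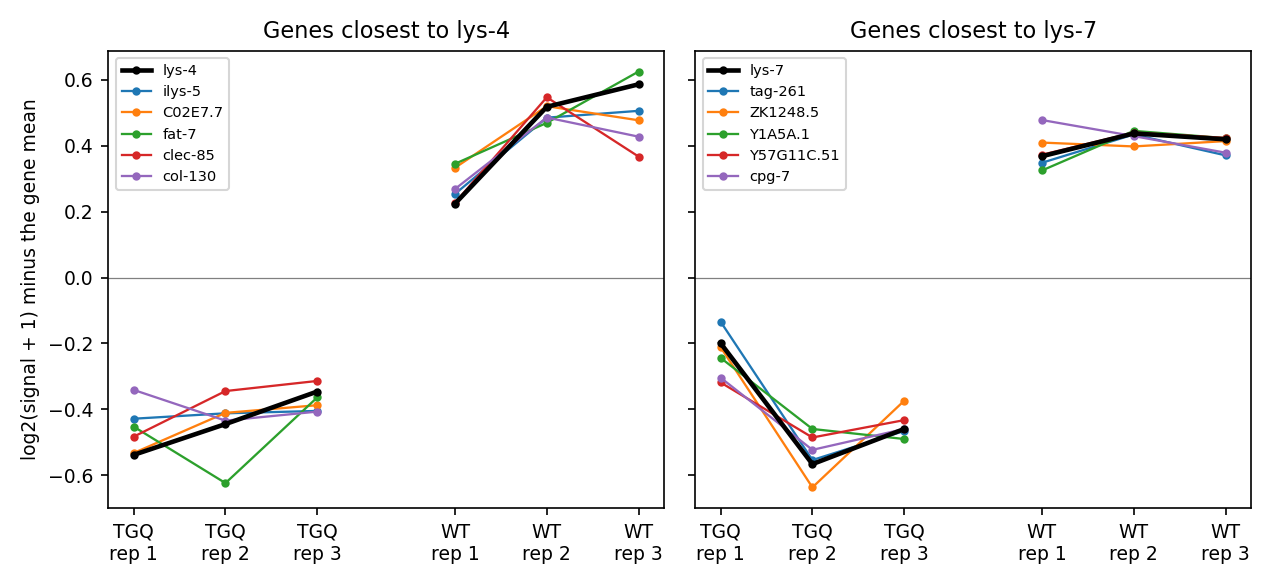
Log2(signal + 1) minus each gene's mean in the 3 TGQ and 3 WT samples, for lys-4 (left, black) and lys-7 (right, black) with the 5 genes of smallest distance to each in colour. Lines identify a gene and imply no order of replicates. Among WT samples the genes near lys-4 are lowest in replicate 1, and among TGQ samples the genes near lys-7 are highest in replicate 1.

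Lists of other effectors of gut and skin immunity are read against the 44.6% of all genes tested that were called lower and the 45.6% called higher. Of 30 listed infection response genes, 6 were in the table, and all 6 were called lower (median log2 change -0.80). They included dod-23 (5.0 ± 1.6 in TGQ and 29.7 ± 4.52 in WT, SD, n = 3, log2 change -2.39), dod-3 (log2 change -1.24), clec-85 (-0.76) and clec-67 (-0.47), the last of which had an adjusted p = 0.0524 without TGQ replicate 2 and 0.0552 without WT replicate 3 in limma. Of the 6, 4 were called lower without TGQ replicate 2 and 4 without WT replicate 3. With 0.1 in place of 1 added to the signal, or without TGQ replicate 3 or WT replicate 2, 5 were called lower. Members not named here had low signals of 0.3 to 2.77. The dod genes were named as downstream of DAF-16. Of 56 annotated genes of antimicrobial peptides and related small proteins, 13 were in the table. Of these, 9 were called lower and 3 higher, or 5 and 3 after quantile normalization. That normalization called 2308 of all 5540 genes tested lower and 2555 higher. Their median log2 change was -0.39, or -0.14 after quantile normalization, against -0.22 and -0.10 over all genes tested. The neuropeptide-like gene nlp-25 had a log2 change of -2.41 and the thaumatin-family gene thn-2 one of -1.61. In contrast, nlp-29, an epidermal antimicrobial peptide gene, rose to 182 ± 9.18 in TGQ, against 92.2 ± 12.7 in WT (log2 change 0.98), and abf-6, of the antibacterial factor family, rose by 0.74.

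Hydrolases that share the gut lumen or the lysosome with lysozymes went both ways. Of 20 in the table, 10 were called higher and 8 lower, shares near the 45.6% and 44.6% over all genes tested. After quantile normalization 10 of the 20 were called higher and 4 lower, against 2555 and 2308 of all 5540 genes tested. Their median log2 change was 0.11, or -0.01 with the authors' scaling, 0.36 after quantile normalization and 0.03 to 0.47 when 1 sample was left out (0.03 without TGQ replicate 1 and 0.44, 0.35 and 0.47 without WT replicates 1, 2 and 3). The cathepsin B-like protease gene cpr-5 rose to 986 ± 31.5 in TGQ, against 535 ± 2.53 in WT (log2 change 0.88). The lysosomal carboxypeptidase gene pcp-1 rose by 0.85, the intestinal acid phosphatase gene pho-1 by 0.81 and the acid alpha-glucosidase gene aagr-2 by 0.73.

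**Figure D4:**
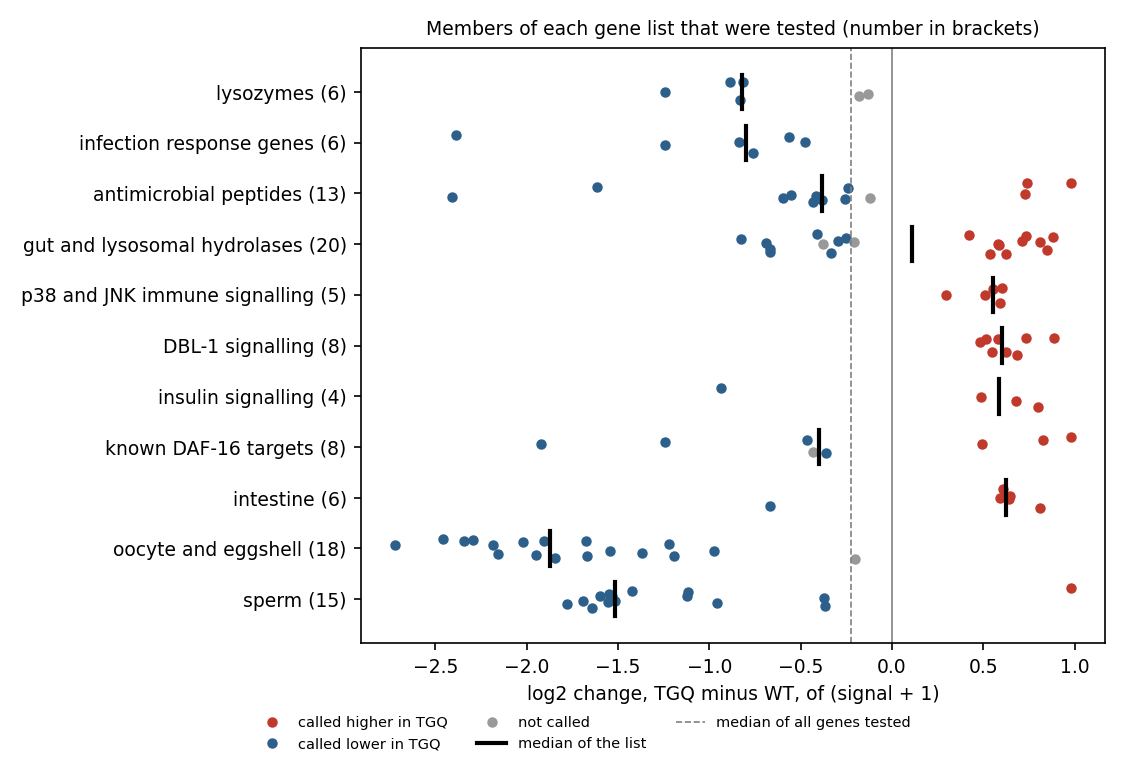
Log2 change of signal + 1, TGQ minus WT, of every tested member of 11 gene lists, with red points called higher in TGQ, blue points called lower and grey points not called, a black bar at each list's median and a dashed line at the median of all genes tested. All 6 infection response genes and 4 of the 6 lysozyme genes lie left of the dashed line, while the genes of p38 and JNK signalling and of DBL-1 signalling are all right of 0.

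Lists of pathways known to act upstream of immune effectors are read against all genes tested, of which 45.6% were called higher and 44.6% lower. Their members in the table were few. Their medians were 0.55 for the p38 and JNK list and 0.60 for DBL-1 signalling. These were close to the marker list medians of 0.62 for intestine, 0.64 for pharynx, 0.65 for neurons and 0.66 for body wall muscle. The median of the hypodermis markers was 0.72. The medians of the germline marker lists were negative, at -1.87 for oocyte and eggshell and -1.52 for sperm. In the p38 and JNK kinase list, which holds the cascade from the adaptor tir-1 through nsy-1 and sek-1, 5 of 13 genes were in the table. All 5 were called higher, and 3 of them remained so when the authors' scaling was applied. That scaling called 2285 of all 5524 genes tested higher. The MAP kinase kinase kinase genes mlk-1 and nsy-1 rose by 0.60 and 0.59 and the JNK-like kinase gene kgb-1 by 0.55. The MAP kinase kinase gene sek-1 rose by 0.51 (adjusted p = 0.02, limma), a call lost under 3 alternatives: the authors' scaling (0.056), leaving out TGQ replicate 2 (0.0604) and leaving out WT replicate 2 (0.0598, log2 change 0.33). The smallest change was that of tir-1, at 0.29 (adjusted p = 0.0406), a call lost with the authors' scaling (0.178) and without TGQ replicate 2 (0.148), TGQ replicate 3 (0.114), WT replicate 1 (0.0517), WT replicate 2 (0.0663) or WT replicate 3 (0.076).

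In the list of DBL-1 signalling, a BMP-like pathway of body size and immunity, 8 of 14 annotated genes were in the table and all 8 were called higher, also under quantile normalization and under the authors' scaling. The receptor-binding protein gene sma-10 rose by 0.89, the type II receptor gene daf-4 by 0.74, the transcription cofactor gene sma-9 by 0.63 and the Smad gene sma-3 by 0.58. The ligand gene dbl-1, named after its values were seen, stood at 6.89 ± 0.70 in TGQ and 4.51 ± 0.16 in WT (SD, n = 3, log2 change 0.51, adjusted p = 0.00449, limma).

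The insulin pathway restrains DAF-16. Of its 14 listed genes 4 were in the table, 3 called higher and 1 lower. The gene daf-16 itself is not analysed here. Of 8 listed DAF-16 targets in the table, 3 were called higher and 4 lower (median log2 change -0.40). Over all genes tested, 45.6% were called higher and 44.6% lower, with a median of -0.22. The small heat-shock protein gene sip-1 had a log2 change of -1.92 and dod-3 one of -1.24, while the trehalose synthesis gene tps-1 rose by 0.98 and the catalase gene ctl-1 by 0.49. Of 12 intestinal transcription factors only hlh-30, the worm homolog of the lysosomal regulator TFEB, was in the table, and it rose by 0.48.

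Lysozyme genes such as lys-7 are known to be expressed in the intestine, and in RNA of whole animals fewer cells of a type and less RNA per cell cannot be told apart. Across all genes tested 45.6% were called higher and 44.6% lower. Of 17 annotated intestinal markers 6 were in the table, none at 0, with 5 called higher and 1 lower. Their summed signal was 671 to 685 in TGQ and 591 to 650 in WT. The intestinal proton pump gene vha-6 and peptide transporter gene pept-1 rose by 0.65 and 0.64, and cpr-1, a cathepsin B-like gene, was the marker that fell (log2 change -0.67, or -0.33 with an adjusted p = 0.0627 after quantile normalization). Most germline markers were also called lower, as were 44.6% of all genes tested. Of 18 oocyte and eggshell markers 17 were called lower, with a summed signal of 333 to 496 in TGQ and 1423 to 1928 in WT. Of 15 tested sperm markers, 14 were called lower and 1 higher (log2 change 0.98). The summed signal of the sperm markers was 1321 to 1582 in TGQ and 3944 to 4667 in WT. The part of the germline difference in the lysozyme result was not tested.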

How the data were processed

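The members and all gene lists were chosen with earlier results of these data known. Polyadenylated RNA of 3 TGQ and 3 WT samples was sequenced as paired 150-base reads, per the labels' protocols. TopHat2 and RSEM are named per the submitters' processing notes, without role or version. The sources used here do not name the genome build, the annotation or the differential test. The authors deposited, per the file headers, a signal per gene and sample, the mean signal of each group, a fold change (ratio of TGQ to WT), its log2, and raw and adjusted p-values, for 5792 genes that had passed their test. The signal is not a count and its depth is unknown, so no counting interval is given.

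The design had foreseen counts or normalized values, and the latter applied. A model with group alone was fitted with limma 3.58.1 (R 4.3.3; eBayes, trend and robust) to log2(signal + 1). It covered 5540 genes reaching a signal of 1 in 3 or more samples. Calls are at a Benjamini-Hochberg adjusted p under 0.05 over all genes tested. The fit was also run on simulated data in which few genes changed. Most genes were called here, so those runs do not bear on these calls. Single ratios were compared by exact two-sided permutation in SciPy 1.17.1. Named were the members, all listed lysozyme genes in the table, in each other list up to 4 called genes of largest change with a mean signal of at least 5, and the 5 closest profiles, with further names marked where chosen after their values were seen. tir-1, pept-1, vha-6 and cpr-1 were also named after their values were seen. The authors' scaling multiplied TGQ values by 0.914, which moved the median log2 ratio of 3716 genes onto that of the authors' deposited table. Positions are from the Ensembl annotation of WBcel235. 1 listed gene is not reported here.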

Additional observations from a re-analysis of the deposited data

How the results depend on the processing

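The falls of lys-4 and lys-7 kept their direction and their call under all 12 alternatives run for each. A kept call says little here, because the table was limited beforehand to genes passing the authors' own test. Under these alternatives between 4331 genes (of 5435 tested, without TGQ replicate 2) and 5222 genes (of 5792 tested, without the filter on low signals) were called. The limma p-values and their adjustment were computed within that preselected set. The log2 change of lys-4 ranged from -1.01 (authors' scaling) to -0.61 (quantile normalization), and that of lys-7 from -0.94 to -0.71, with the highest adjusted p at 0.00231 and 0.00227 (limma). Leaving out 1 sample in turn gave -0.995 to -0.81 for lys-4 and -0.92 to -0.74 for lys-7.

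The ratio of lys-7 to lys-4 changed sign with the samples used. Leaving out 1 sample gave differences of -0.10 (without TGQ replicate 1) to 0.15 on the log2 scale, including -0.01 without WT replicate 3, and quantile normalization, added after the data were seen, gave -0.10. The ratio of lys-7 to ilys-5 also changed sign, at 0.013 with 1 added to both genes and -0.12 to 0.079 without 1 sample (0.079, 0.028 and 0.057 without TGQ replicate 2, TGQ replicate 3 and WT replicate 1). Among lysozymes, lys-2 turned to 0.058 and lys-8 to 0.21 after quantile normalization. The cause was not tested.

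Same-numbered replicates share a number in the labels, and the deviations of same-numbered samples correlated at 0.247, -0.012 and 0.16, so the numbers were not taken to pair samples. With the replicate block, 5137 genes were called in place of 4998, with the log2 changes of lys-4 and lys-7 unchanged at -0.89 and -0.82. The planned count models were not run, since the table holds no counts, and the depth that limits low signals is unknown.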

Other observations

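Markers of other tissues in the same samples give context that the lysozyme comparison does not use. These markers are read against all genes tested, of which 45.6% were called higher and 44.6% lower, with a median log2 change of -0.22. Of 5 pharynx markers in the table, 4 were called higher in TGQ, among them the pharyngeal myosin gene myo-2 at 50.4, 58.1 and 42.3 in TGQ replicates 1 to 3 and 34.03, 29.2 and 32.02 in WT replicates 1 to 3 (log2 change 0.64), and 1 was lower, phat-2, a toxin-related gene of the pharyngeal gland (-0.25, adjusted p = 0.0446, limma). All 4 neuron and all 3 body wall muscle markers in the table were called higher, with median log2 changes of 0.65 and 0.66. However, 1 of the 3 muscle markers was no longer called with the authors' scaling. The count also fell to 2 of 3 without TGQ replicate 1 or 2, or without WT replicate 2 or 3. Of 7 hypodermis markers 5 were called higher, led by the cuticle collagen gene dpy-7 (log2 change 1.38), and 1, the collagen gene dpy-5, was called lower (-0.21, adjusted p = 0.0457, limma). The calls of phat-2 and dpy-5 were both lost after quantile normalization (adjusted p of 0.117 and 0.747) and when any of TGQ replicates 1 to 3 or WT replicates 2 or 3 was left out. These genes were chosen for display after their values were seen.

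The nearest protein-coding genes on either side of the members, dsl-5 and lys-5 beside lys-4 and srbc-30 and srbc-33 beside lys-7, are not analysed here. The gaps to them are 419 and 1077 bases for lys-4 and 985 and 359 bases for lys-7.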
